A study of Mus musculus with 16 samples.

Results

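The genes described here, Mcu, Mcub, Smdt1, Micu2 and Micu3, encode subunits of the mitochondrial calcium uniporter complex. They were taken as the rows of a gene count table whose Ensembl mouse IDs map to those symbols. All 5 of 5 were found among 55573 gene rows. The rule used symbols and no measured value, but earlier results of these data were known when the members were chosen. RNA was sequenced from cerebral cortex of mice of about postnatal day 180 that had received no treatment, in 4 groups of 4 libraries each. Aifm1-KI mice carry a knock-in deletion of the residue R200 of Aifm1, and Aifm1-WT are their wild-type littermates. Hq-mut are Harlequin mice, a spontaneous mutant of Aifm1 kept in the stock B6CBACa Aw-J/A-Aifm1Hq/J, and Hq-WT are the wild-type littermates of that stock. The labels give the strain of all 16 libraries as C57BL/6, which does not match the stock name. Whether 1 library stands for 1 animal is not said, so the p-values cover only the spread among libraries, which may be technical.

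The uniporter lets calcium pass the inner mitochondrial membrane into the matrix, driven by the membrane potential. MCU forms the pore, MCUB is a related pore subunit that lowers transport when it enters the channel, EMRE (the product of Smdt1) is a small membrane protein needed for a working channel in animals, and the MICU proteins are calcium-binding gatekeepers in the intermembrane space that hold the pore shut at low calcium and help to open it at high calcium. MICU3 is the gatekeeper known for its high level in neurons. The product of Aifm1, apoptosis-inducing factor (AIF), sits in the intermembrane space and binds CHCHD4, an import factor that forms disulfide bonds in proteins of that space.

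The pore and its related subunit share a pore motif, and the coding stretch around it is shown for both. The motif is known as DIME, after its residues. The capitals mark the codons of the motif, with 27 bases on each side, 5′ to 3′ on the coding strand of the GENCODE M21 transcripts (GRCm38). The Mcu stretch covers coding bases 751 to 816 and the Mcub stretch covers coding bases 736 to 801.
Mcu: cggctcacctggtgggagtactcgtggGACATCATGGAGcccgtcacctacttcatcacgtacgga
Mcub: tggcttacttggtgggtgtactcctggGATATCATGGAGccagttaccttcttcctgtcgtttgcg

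Between these stretches 16 of 66 bases differ, including 1 of the 12 motif bases. Over the aligned coding sequences, 583 of 1017 bases were identical (57.3%), and the longest identical run was 11 bases, well under the read length of 51 bases. The gatekeepers Micu2 and Micu3 were identical at 799 of 1235 aligned coding bases (64.7%), with a longest run of 15 bases. No window of 51 bases in the main coding transcript of Mcu, Mcub, Micu2 or Smdt1 occurred in a transcript of another gene. In Micu3, 159 of 2169 such windows (7.33%) also lay in Fgf20 or Mir7666, which overlap it.

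All 5 are protein-coding genes, placed here on GRCm38. Mcu (ENSMUSG00000009647) lies on chromosome 10 from 59446984 to 59616692 on the minus strand. Mcub (ENSMUSG00000027994) lies on chromosome 3 from 129914960 to 129970206, also on the minus strand. Smdt1 (ENSMUSG00000022452) lies on chromosome 15 from 82338959 to 82349091 on the plus strand. Micu2 (ENSMUSG00000021973) lies on chromosome 14 from 57916261 to 57999262 on the minus strand, and Micu3 (ENSMUSG00000039478) on chromosome 8 from 40307458 to 40386308 on the plus strand. Smdt1 shares 245 exon bases (16.6% of its exon length) with Pheta2 on the same strand. Pheta2 had 4 to 22 counts per library, against 574 to 2790 for Smdt1. Micu3 shares 202 exon bases (3.28%) with Fgf20 on the opposite strand, and Fgf20 had 0 to 2 counts per library, against 1082 to 4399 for Micu3. Where exons overlap, reads of Smdt1 and Pheta2 cannot be told apart by strand, and those of Micu3 and Fgf20 cannot be told apart unless strand was used, which no source used here states.

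Total counts ran from 10671580 (Hq-WT 3) to 32551594 (Aifm1-KI 2), and 3 counts, the limit that a count of 0 allows, correspond to 0.277 and 0.0876 CPM (counts scaled to library size with TMM factors). These limits cover counting error only. The 10 excitatory neuron markers summed to between 4501 and 6513 CPM, with 0 of 10 at 0 in any library. By sign 10 of 10 were lower in Aifm1-KI than in Aifm1-WT (median -0.27 log2 units), with sums that overlapped. At an unadjusted p under 0.05 by edgeR were 3 of them, against 11.4% of all genes. By mean log2 CPM, Aifm1-KI 2 (6.37) and Aifm1-KI 4 (7.10) were lowest, and the other 14 libraries had 7.43 to 7.73. Of the oligodendrocyte markers 9 of 9 were lower by sign (median -0.41). The part of these cells in the member values was not tested. Aifm1 itself was 2.22 to 4.01 CPM in the Hq-mut libraries and 23.1 to 25.8 CPM in Hq-WT, 7.40-fold lower (adjusted p = 0.00101), and in Aifm1-KI it was 21.7 to 25.8 CPM against 21.5 to 23.4 CPM in Aifm1-WT (adjusted p = 0.679). The count table does not show whether reads carry the R200 deletion, so the Aifm1 level is no check of the Aifm1-KI labels. Libraries of some groups stood apart in markers of other tissue. The 10 striatum markers summed to 265 to 641 CPM in Aifm1-KI against 227 to 277 CPM in Aifm1-WT, and to 251 to 856 CPM in Hq-mut against 281 to 309 CPM in Hq-WT. The 8 choroid plexus markers reached 5523 CPM in Hq-WT 2 and 2836 CPM in Aifm1-KI 2, and 10 liver markers 286 and 321 CPM in Aifm1-WT 1 and 2, where the other 14 libraries had 6.46 to 44.7 CPM. In bulk tissue, fewer cells of a type and less RNA per cell cannot be told apart.

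Compared per kilobase of exon, Smdt1 had the highest level of the complex and Mcub the lowest, in each of the 16 libraries. Smdt1, the EMRE gene, averaged 37.4 CPM per kilobase over the 16 libraries, and 94.5% of 19091 genes that passed the filter on low counts had a lower level. The neuronal gatekeeper Micu3 followed with 19.7 CPM per kilobase (87.5% of genes lower), then Micu2 with 7.53 (68.5%) and the pore gene Mcu with 4.36 (55.3%). Mcub, the related pore subunit, averaged 0.751 CPM per kilobase, with 22.7% of genes lower. Its counts were 8 to 40 per library, so each of its values carries a large counting error.

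The order Smdt1, Micu3, Micu2, Mcu, Mcub held in 16 of 16 libraries with exon length taken as the union of all annotated exons. Smdt1 was 1.32 to 4.08 times Micu3, Micu3 was 2.16 to 3.47 times Micu2, and Mcu was 3.63 to 10.1 times Mcub. The middle step depended on the length used. Micu2 was 1.4 to 2.12 times Mcu per union exon length, but with the longest coding transcript (2872 bases for Mcu in place of 6936, and 2329 bases for Micu2 in place of 3084) it was 0.765 to 1.16 times Mcu and higher in only 6 of 16 libraries. Mcu then stood above Micu2 in both Hq groups. Micu2 and Mcu are therefore neighbours without a fixed order here, while the other steps held under both lengths.

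**Figure D1:**
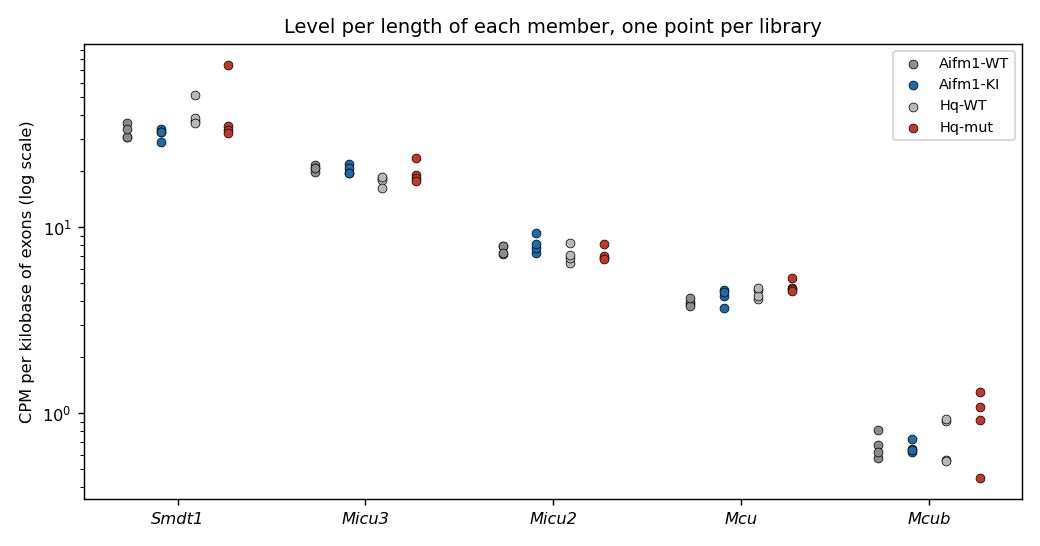
Level of each member in CPM per kilobase of union exon length (log axis), with 1 point per library and 4 libraries per group. Smdt1 lies highest and Mcub lowest in all 16 libraries, and Hq-mut 2 is the highest Smdt1 point, at 74.9 CPM per kilobase.

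The spread between libraries also differed by member. Over the 16 libraries the coefficient of variation was 9.32% for Micu3, 9.82% for Mcu and 9.87% for Micu2, and 30.1% for both Mcub and Smdt1. In Mcub the spread went with low counts. In Smdt1, 2 libraries stood high, Hq-WT 2 and Hq-mut 2. The values below are CPM, which compare libraries for 1 gene and not genes with each other.

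The question of the Aifm1-KI comparison is whether a mutant AIF protein at about normal transcript level goes with other uniporter transcripts. For none of the 5 members was the difference between Aifm1-KI and Aifm1-WT larger than the spread between libraries, and the largest point estimate was 0.13 log2 units, for Mcu. By edgeR's quasi-likelihood test 0 of 5 members were called at an adjusted p under 0.05, where 0 of 18383 genes were called (percent called 0). At an unadjusted p under 0.05 there were 0 members, against 11.4% of all genes. DESeq2 called 82 genes in this comparison and edgeR without Aifm1-KI 3 called 46, with 0 members in both.

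The pore gene Mcu was 26.8, 27.6, 26.1 and 29.0 CPM in Aifm1-WT 1 to 4 and 25.7, 31.9, 29.8 and 31.1 CPM in Aifm1-KI 1 to 4. Of the Aifm1-KI libraries, 3 lay above every Aifm1-WT library, and Aifm1-KI 1 was the lowest of all 8. The group means were 27.3 ± 1.25 and 29.6 ± 2.75 CPM (SD, n = 4). edgeR gave a log2 fold change of 0.13 (SE 0.075, 95% interval -0.04 to 0.30, adjusted p = 0.514). It was 0.02 with the striatum marker level as a covariate, 0.03 without Aifm1-KI 2 and 4, the libraries with the highest striatum marker sums, and 0.19 without Aifm1-KI 1.

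Mcub was 0.760, 0.888, 0.819 and 1.07 CPM in Aifm1-WT and 0.845, 0.818, 0.838 and 0.960 CPM in Aifm1-KI. The Aifm1-KI values lay inside the range of the wild types. Its log2 fold change was -0.02 (SE 0.18, 95% interval -0.43 to 0.39, adjusted p = 0.980), so that a difference of up to 1.31-fold higher is within the interval.

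Smdt1, whose product links the pore with its gatekeepers, was 53.5, 45.1, 45.4 and 49.7 CPM in Aifm1-WT and 42.5, 49.8, 48.1 and 48.3 CPM in Aifm1-KI. The groups overlapped, with the lowest value in Aifm1-KI 1 and the highest in Aifm1-WT 1. Its log2 fold change was -0.02 (SE 0.072, 95% interval -0.19 to 0.14, adjusted p = 0.921).

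The gatekeeper Micu2 was 22.2, 24.5, 24.6 and 22.4 CPM in Aifm1-WT and 22.6, 28.8, 23.8 and 25.2 CPM in Aifm1-KI. Aifm1-KI 2 was the highest of the 8, and it is also the Aifm1-KI library with the most choroid plexus and striatum marker counts. Its excitatory neuron marker level was the lowest of all 16 libraries (mean log2 CPM 6.37). Whether those tissues or that lower level have a part in its Micu2 level was not tested. For Micu2 the log2 fold change was 0.12 (SE 0.085, 95% interval -0.07 to 0.31, adjusted p = 0.614), and it was -0.0057 without Aifm1-KI 2 and 4 and -0.04 with the striatum covariate.

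Micu3 was 132.6, 128.3, 121.8 and 128.8 CPM in Aifm1-WT and 134.3, 128.5, 120.5 and 120.2 CPM in Aifm1-KI. The ranges were nearly the same. Its log2 fold change of -0.01 (SE 0.054, 95% interval -0.13 to 0.11, adjusted p = 0.970) had the narrowest interval of the 5, as a ratio of Aifm1-KI to Aifm1-WT no lower than 0.914.

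**Figure D2:**
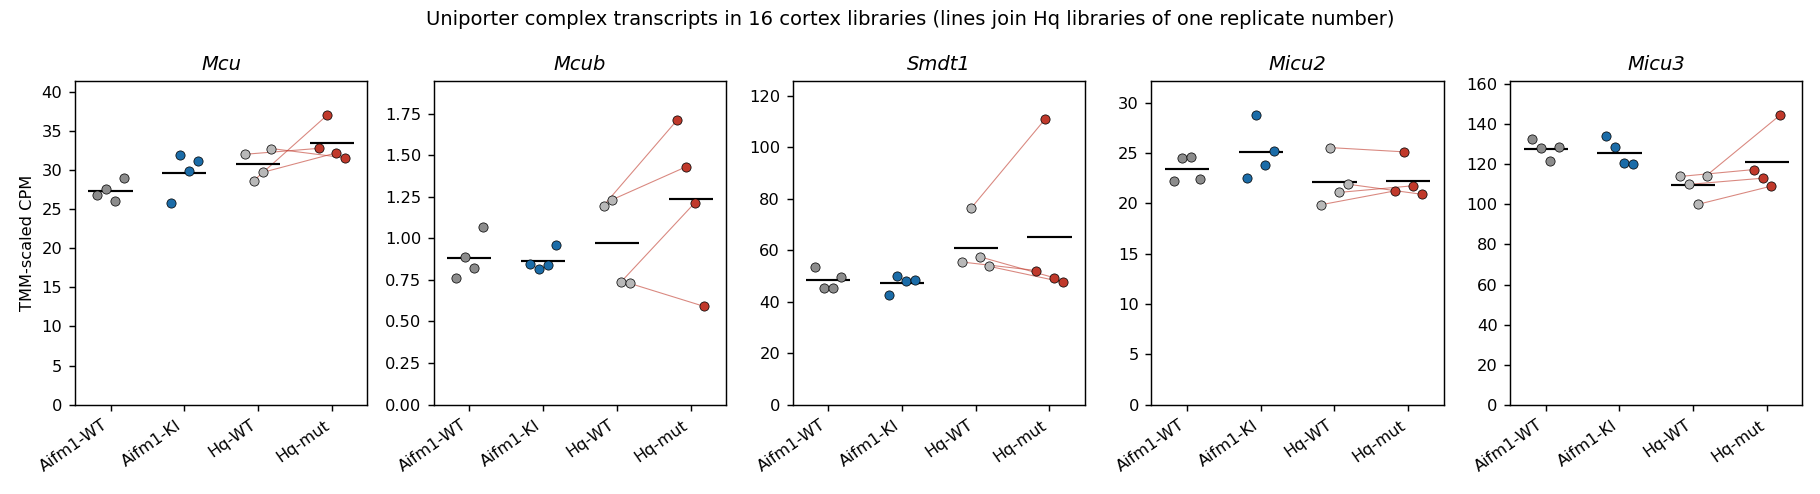
TMM-scaled CPM of each member by group, with 1 point per library, a bar at the mean of 4, and lines joining Hq libraries of the same replicate number. Smdt1 in Hq-mut 2 (110.8 CPM) and Hq-WT 2 (76.4 CPM) stand above the other libraries of their groups, and Micu3 is higher in Hq-mut in 4 of 4 pairs.

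The Harlequin comparison asks the same of a mouse in which Aifm1 transcript itself is low. Hq libraries of the same replicate number deviated together, so the number was kept as a block and each mutant was set beside its same-numbered wild type. No member passed the test: 0 of 5 were called by edgeR, where 3 of 17969 genes were called (percent called 0.0167). At an unadjusted p under 0.05 there were 0 members against 7.97% of genes, and DESeq2 called 33 genes and 0 members. Without pair 1, or without pair 3, edgeR called 1 gene.

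Mcu was 32.0, 28.6, 29.7 and 32.7 CPM in Hq-WT 1 to 4 and 32.7, 37.0, 32.2 and 31.5 CPM in Hq-mut 1 to 4. It was higher in the mutant in 3 of 4 pairs, with the widest gap in pair 2 (log2 ratio 0.37) and a lower mutant value in pair 4 (-0.05). The paired log2 fold change was 0.09 (SE 0.090, 95% interval -0.11 to 0.30, adjusted p = 0.820). It was 0.01 without pair 2 and 0.15 without pair 4. By sign 9 of 9 oligodendrocyte markers were higher in Hq-mut (median 0.27 log2 units). Their sums were 4798 CPM in Hq-mut 2 and 1981 CPM in Hq-WT 2, the widest gap, and were lower in the mutant in pairs 1 and 3. The part of these cells in the member values of pair 2 was not tested.

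Mcub was 1.197, 1.23, 0.739 and 0.728 CPM in Hq-WT and 1.71, 1.43, 1.21 and 0.591 CPM in Hq-mut. The mutant was higher in pairs 1, 2 and 3 and lower in pair 4, where its value was the lowest of all 16 libraries. At 8 to 40 counts per library the log2 fold change of 0.27 (SE 0.25, adjusted p = 0.813) had a 95% interval from -0.30 to 0.84, which includes a ratio of Hq-mut to Hq-WT of up to 1.79. It was 0.17 without pair 3 and 0.42 without pair 4.

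Smdt1 was 55.4, 76.4, 57.4 and 53.7 CPM in Hq-WT and 52.1, 110.8, 49.3 and 47.6 CPM in Hq-mut. Both libraries numbered 2 were the highest of their group, and pair 2 was the only pair with a higher mutant value: its log2 ratio was 0.54, against -0.09, -0.22 and -0.17 in pairs 1, 3 and 4. The log2 fold change over the 4 pairs was -0.0053 (SE 0.13, 95% interval -0.29 to 0.28, adjusted p = 0.996). Without pair 2 it was -0.18, with an adjusted p of 0.283, and without the block it was 0.07. The sign near 0 also turned without pair 1, 3 or 4 (0.03, 0.07 and 0.06), so no direction is given.

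Micu2 was 19.9, 25.5, 21.1 and 21.9 CPM in Hq-WT and 21.2, 25.1, 21.7 and 20.9 CPM in Hq-mut. The same-numbered libraries lay close to each other, with the mutant higher in 2 of 4 pairs and both libraries numbered 2 the highest of their group. Across pairs the log2 fold change was -0.01 (SE 0.081, 95% interval -0.20 to 0.17, adjusted p = 0.981).

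Micu3 was 114.0, 110.0, 100.02 and 114.4 CPM in Hq-WT and 117.4, 113.1, 109.2 and 144.7 CPM in Hq-mut. The mutant was higher in 4 of 4 pairs, a pattern shown by 11.9% of all genes tested, and the groups overlapped. The log2 ratios of the pairs were 0.04, 0.04, 0.13 and 0.34, so that most of the difference lay in pair 4. Its log2 fold change was 0.11 (SE 0.074, 95% interval -0.06 to 0.28, adjusted p = 0.731), and 0.04 without pair 4.

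The effects of the knock-in and of Harlequin on each member were compared directly over all 16 libraries. The difference, the knock-in effect minus the Harlequin effect, was 0.04 log2 units for Mcu, -0.29 for Mcub, -0.02 for Smdt1, 0.13 for Micu2 and -0.12 for Micu3. None passed the test (adjusted p from 0.613 for Micu3 to 0.974 for Smdt1), where 2 of 19129 genes did (percent called 0.0105). At an unadjusted p under 0.05 there were 0 members, against 10.4% of genes. The 95% intervals were widest for Mcub (-0.90 to 0.32) and narrowest for Micu3 (-0.31 to 0.07).

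For Micu3, Smdt1 and Mcu the largest log2 fold changes lay between the wild types of the lines, without overlap of the groups for Micu3 and Smdt1. In Hq-WT, Micu3 was lower than in Aifm1-WT, at 109.6 ± 6.70 against 127.9 ± 4.47 CPM (SD, n = 4), and the highest Hq-WT library (114.4 CPM) lay below the lowest Aifm1-WT library (121.8 CPM). This gave a log2 fold change of -0.23 (SE 0.067, 95% interval -0.38 to -0.08), with an unadjusted p of 0.00583 and an adjusted p of 0.187 by edgeR. Smdt1 was higher in Hq-WT, at 60.7 ± 10.5 against 48.5 ± 4.003 CPM (SD, n = 4), and its lowest Hq-WT library (53.7 CPM) lay just above the highest Aifm1-WT library (53.5 CPM). The log2 fold change was 0.32 (SE 0.11, 95% interval 0.08 to 0.56), with an unadjusted p of 0.0138 and an adjusted p of 0.256, and 0.21 without Hq-WT 2. Neither Micu3 nor Smdt1 passed the test over all genes, where 101 of 18106 genes did (percent called 0.558). With 1 library left out, 32 to 231 genes did. At an unadjusted p under 0.05 these were 2 of 5 members, against 12.7% of all genes. Groups that did not overlap were found in 2.69% of genes in the higher direction and 4.59% in the lower direction. Mcu was 0.16 log2 units higher in Hq-WT (adjusted p = 0.412), Mcub 0.15 higher (adjusted p = 0.845) and Micu2 had a log2 fold change of -0.09 (adjusted p = 0.711), with overlapping groups. Stock and any difference in handling cannot be told apart here, and markers of other tissue move with this contrast. The 10 liver markers are high in Aifm1-WT 1 and 2. The 7 meninges markers summed to 21.1 to 47.0 CPM in Hq-WT and 51.6 to 81.8 CPM in Aifm1-WT, and the 6 thalamus markers to 63.4 to 73.7 and 81.2 to 103.7 CPM, without overlap in either list. By sign 9 of 9 oligodendrocyte markers were lower in Hq-WT (median -0.47 log2 units), with sums that overlapped (1981 to 6042 and 3600 to 4911 CPM). The part of these tissues in the Micu3 and Smdt1 values was not tested. Without Aifm1-WT 1 and 2 the log2 fold changes of Micu3 and Smdt1 were -0.19 and 0.36.

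**Figure D3:**
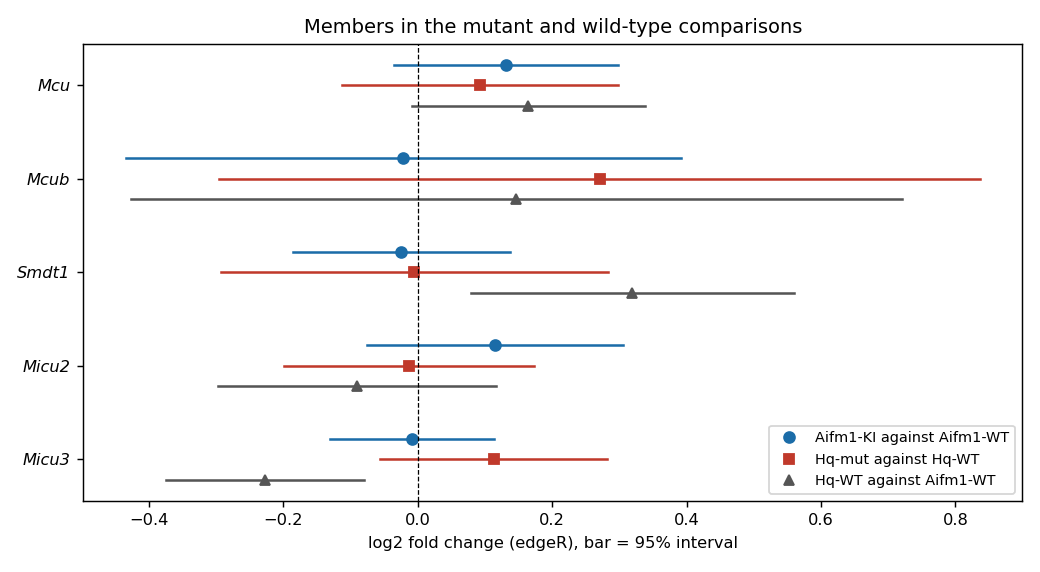
log2 fold change of each member (edgeR) in Aifm1-KI against Aifm1-WT, Hq-mut against Hq-WT and Hq-WT against Aifm1-WT, with bars for the 95% interval. The intervals of both mutant comparisons include 0 for all 5 members, and those of Smdt1 and Micu3 in the wild types do not, before adjustment over all genes.

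Member transcripts were also compared within each library, as the ratio of each member to Mcu per kilobase of union exon length. This ratio does not depend on scaling between libraries, and it is of RNA, not of protein in the complex. Its size depends on the length used. With the longest coding transcript, Mcu was 8.78 to 24.5 times Mcub, and Micu2 was 0.765 to 1.16 times Mcu. A change of length moves all libraries alike, so log2 differences between groups stay the same. For each Mcu unit, Aifm1-WT had 8.32 ± 0.741 of Smdt1, 5.28 ± 0.237 of Micu3, 1.93 ± 0.165 of Micu2 and 0.170 ± 0.0184 of Mcub (SD, n = 4). Aifm1-KI had 7.48 ± 0.214 of Smdt1, 4.83 ± 0.707 of Micu3, 1.90 ± 0.114 of Micu2 and 0.155 ± 0.0166 of Mcub. Each mean was lower in Aifm1-KI, and none passed an exact permutation test. The ratios share Mcu as denominator, so the lower means are not separate results. Mcu itself had a log2 fold change of 0.13 in Aifm1-KI. The log2 fold changes of the numerators were -0.02 for Smdt1, -0.01 for Micu3, -0.02 for Mcub and 0.12 for Micu2. The difference in the Micu2 to Mcu ratio changed sign in 3 of 8 alternatives.

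The closest was the ratio of Smdt1 to Mcu, with a log2 difference of -0.15 (exact two-sided permutation p = 0.0571, 0.457 adjusted over the 8 ratio tests). The smallest p that 4 against 4 libraries allow is 0.0286. Aifm1-WT 1 had the highest ratio of Smdt1 to Mcu of its group (9.39, against 7.68 to 8.17 in the others). With 1 library left out, the log2 difference in this ratio ran from -0.19 to -0.09, the latter without Aifm1-WT 1. Micu3 to Mcu differed by -0.14 (exact permutation p = 0.257), where Aifm1-KI 1 alone had a ratio of 5.89 and the other Aifm1-KI libraries had 4.36 to 4.55, below all the Aifm1-WT libraries (5.01 to 5.59). Mcub to Mcu differed by -0.13 (exact permutation p = 0.286) and Micu2 to Mcu by -0.02 (exact permutation p = 0.8).

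In the Hq line the ratio of Smdt1 to Mcu was 9.35 ± 2.19 in Hq-WT and 8.94 ± 3.40 in Hq-mut, that of Micu3 4.02 ± 0.226 and 4.12 ± 0.744, that of Micu2 1.63 ± 0.267 and 1.498 ± 0.0307, and that of Mcub 0.168 ± 0.0524 and 0.194 ± 0.0726 (SD, n = 4). The wide spread of the Smdt1 ratio came from the libraries numbered 2, with 12.5 in Hq-WT 2 and 14.04 in Hq-mut 2. The log2 differences were -0.10 for Smdt1, 0.02 for Micu3, -0.10 for Micu2 and 0.17 for Mcub, with exact sign-flip p of 0.5, 0.625, 0.375 and 0.5 over 4 pairs. This design cannot reach 0.05, since its smallest two-sided p is 0.125. All 8 adjusted values lay between 0.457 and 0.8.

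**Figure D4:**
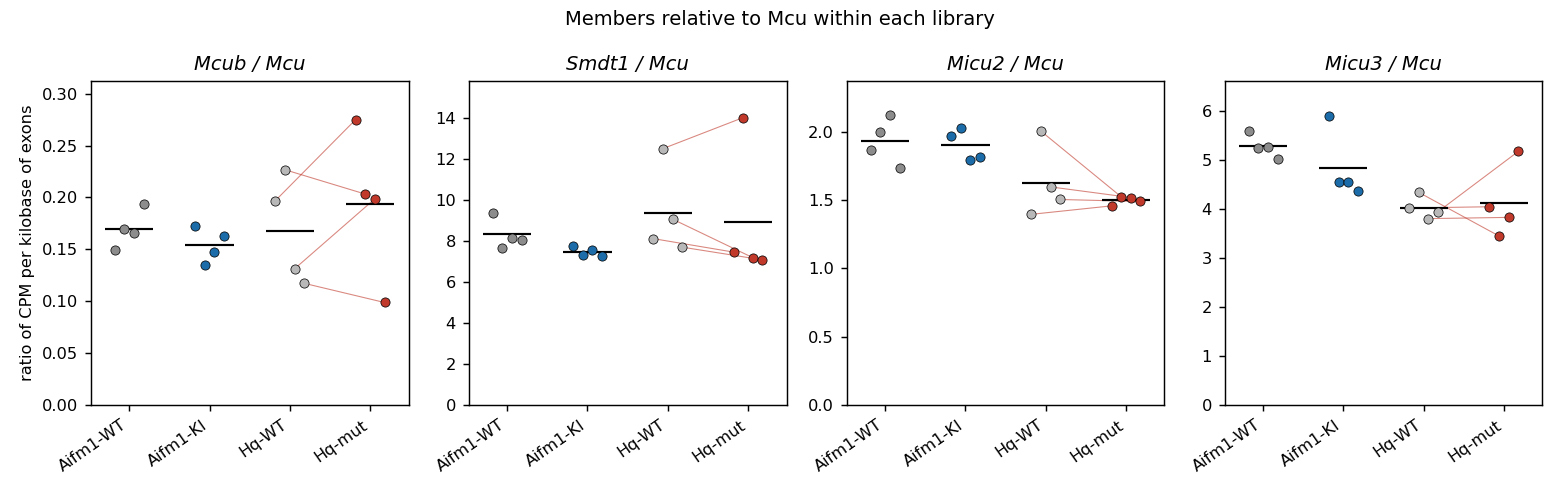
Ratio of each member to Mcu within each library, from CPM per kilobase of union exon length, with 1 point per library, a bar at the mean of 4, and lines joining Hq pairs. Ratios of Smdt1 to Mcu reach 14.04 in Hq-mut 2 and 12.5 in Hq-WT 2, while the other 14 libraries lie between 7.08 and 9.39.

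Genes whose levels followed those of each member over the libraries were looked up next. By Pearson's r of log2 CPM over the 16 libraries, among 11296 genes with a mean of at least 5 CPM, the closest to Smdt1 were Atp5mpl, which encodes a small ATP synthase subunit (r = 0.974, Spearman's rho = 0.847), Ndufb8, a complex I subunit (r = 0.974, rho = 0.841), and Psmc1, a proteasome ATPase (r = 0.974, rho = 0.782). In pair 2, Atp5mpl was 77.2 CPM in Hq-WT 2 and 125.6 CPM in Hq-mut 2, Ndufb8 106.2 and 153.9 CPM, and Psmc1 111.0 and 144.5 CPM. Without these 2 libraries r was 0.760, 0.768 and 0.746, so the likeness rests in part on them. Genes were ranked by r, so no p is given.

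Smdt1 is the shortest of the 5, with a main transcript of 705 bases. The share of counts from 2502 genes whose longest coding transcript is under 1000 bases was 2.31% in Hq-mut 2 and 1.69% in Hq-WT 2, against at most 1.31% in the other 14 libraries. Counts of mitochondrially encoded genes were 5.65% and 5.93% of the total in those libraries and 3.86% to 5.50% in the others. The astrocyte markers summed to 4183 CPM in Hq-mut 2 and 3819 CPM in Hq-WT 2, the lowest sums of their groups, though by mean log2 CPM Hq-mut 1 was lower (7.57) than Hq-mut 2 (7.996). The choroid plexus markers summed to 381 CPM in Hq-mut 2 and 5523 CPM in Hq-WT 2, the highest sums of their groups. By mean log2 CPM, however, Hq-mut 3 was higher (1.92) than Hq-mut 2 (1.46). The part of any of these in the Smdt1 values was not tested.

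**Figure D5:**
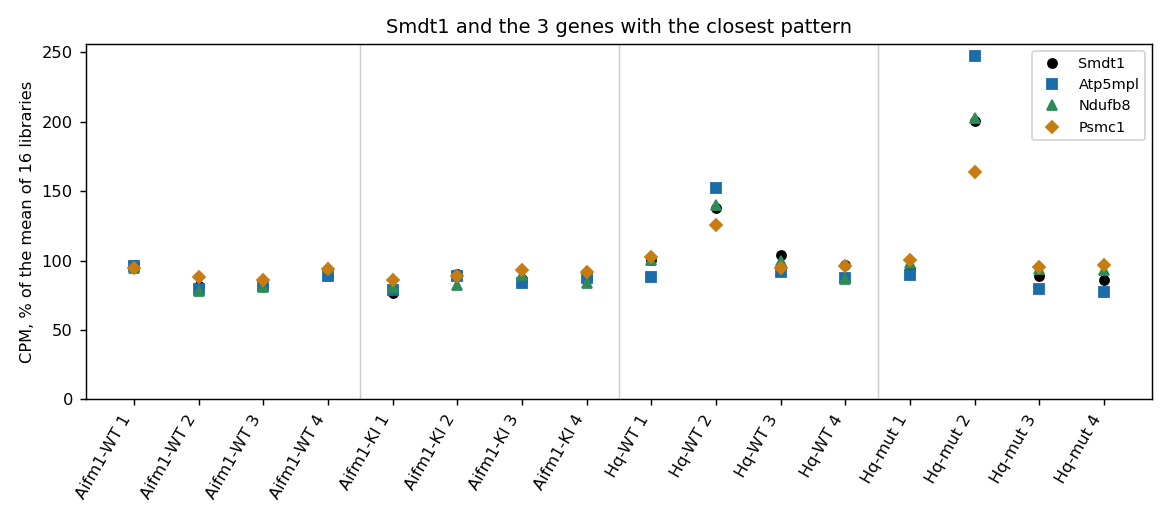
CPM of Smdt1, Atp5mpl, Ndufb8 and Psmc1 in each library, as a percent of the gene's mean over 16 libraries. All 4 genes are highest in Hq-mut 2, followed by Hq-WT 2, where Smdt1 reaches 200% and 138% of its mean.

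The other members had other neighbours. Mcu was closest to Egln3, an oxygen-sensing prolyl hydroxylase (r = 0.892), Nol9 (r = 0.880) and Nell1 (r = 0.878). Egln3 and Nell1 also differed between the wild types, with every Hq-WT library above every Aifm1-WT library. The lowest Hq-WT and highest Aifm1-WT values were 8.94 and 8.41 CPM for Egln3, and 33.03 and 27.99 CPM for Nell1. For Nol9 the wild types overlapped. Mcub was closest to Snap29, a membrane fusion protein (r = 0.936), Rap1b, a small GTPase (r = 0.891), and Baiap2, an actin regulator (r = 0.878). Micu2 was closest to Lgals3bp (r = 0.889), Hist3h2a, a histone gene (r = 0.867), and Nelfa, a subunit of a factor that pauses RNA polymerase II (r = 0.862). Micu3 was closest to Nudcd1 (r = 0.820), Mzt1, a microtubule nucleation factor (r = 0.805), and Qrich1 (r = 0.800). Leaving out the 2 libraries farthest from each member's median gave r of 0.786 to 0.929 for the genes near Mcu, Mcub and Micu2, and of 0.542 for Qrich1 with Micu3. Between members, r was highest for Mcu with Smdt1 (0.559) and lowest for Micu3 with Smdt1 (-0.467), over the same 16 libraries. These share depth and dissection, and r is given as a description. Each r pools both lines, so a difference between the lines can enter it. Between the wild types, Smdt1 was higher and Micu3 lower in Hq-WT without overlap, and Mcu was higher with overlap. The part of the line in any r was not tested.

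Other genes of mitochondrial calcium handling were followed in 4 lists of 47 genes in all, each of which was tested in every comparison, with 0 called in any of the lists in any comparison. In Aifm1-KI more of these genes were lower than higher by sign, with small values. The median of all genes was 0.0055 log2 units, and 51.6% of them were above 0. Of 12 regulators and assembly factors of the uniporter, 5 were higher and 7 lower by sign (median -0.0037), and the smallest p was that of Efhd1, a calcium-binding protein of mitochondria (log2 fold change -0.43, SE 0.17, adjusted p = 0.416, and -0.0072 with the striatum covariate). Of 10 other transport genes 3 were higher and 7 lower (median -0.02), with the smallest p for Slc8b1, the sodium-calcium exchanger that carries calcium out of the matrix (-0.30, SE 0.18, adjusted p = 0.528). Of 13 genes of contacts between endoplasmic reticulum and mitochondria 4 were higher and 9 lower (median -0.03), with the smallest p for the fission adaptor Fis1 (-0.13, SE 0.059, adjusted p = 0.434, and -0.07 with the striatum covariate). Of 12 genes of calcium-sensitive metabolism 3 were higher and 9 lower (median -0.05), with the smallest p for Slc25a13, a calcium-regulated aspartate-glutamate carrier (-0.36, SE 0.15, adjusted p = 0.430).

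In Hq-mut more of these genes were higher than lower by sign, with small values. The median of all genes was 0.0060 log2 units, and 51.6% of them were above 0. Among the regulators 8 were higher and 4 lower (median 0.02). Afg3l2, a protease that processes free EMRE, was higher in 4 of 4 pairs, and so was Chchd4, by 0.25, 0.31, 0.15 and 0.07 log2 units (log2 fold change 0.17, SE 0.077, adjusted p = 0.635). Among the other transport genes 8 were higher and 2 lower (median 0.08), and 5 of 10 were higher in 4 of 4 pairs. These were the outer membrane channel genes Vdac1 and Vdac2, the ion exchanger gene Letm1, and Ghitm and Letmd1. Among the contact genes 10 were higher and 3 lower (median 0.07), and 3 of 13 were higher in 4 of 4 pairs: the calcium release channel Itpr1 (0.21, SE 0.090, adjusted p = 0.624, and 0.10 without pair 1), Mfn2 and Bcap31. Among the metabolic genes 10 were higher and 2 lower (median 0.07), and 4 of 12 were higher in 4 of 4 pairs: Idh3a and Idh3b, subunits of a calcium-sensitive dehydrogenase, Ogdh, and the carrier Slc25a12 (0.15, SE 0.064, adjusted p = 0.623). The share of all genes higher in 4 of 4 pairs was 11.9%. Vdac1 had the smallest p of its list (0.17, SE 0.064, adjusted p = 0.601). The 10 striatum markers were all higher in Hq-mut by sign (median 0.74 log2 units), but only 4 of 10 in 4 of 4 pairs. Their sums were 367, 251, 856 and 330 CPM in Hq-mut 1 to 4 and 309, 301, 281 and 289 CPM in Hq-WT 1 to 4. The widest gap thus lay in pair 3, and pair 2 had the lower sum in the mutant. The part of these markers in the values above was not tested.

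Between the lines and the wild types the lists gave 0 calls as well. For the knock-in effect minus the Harlequin effect, the smallest p among the other transport genes was that of Vdac1 (-0.16, adjusted p = 0.500) and among the metabolic genes that of Slc25a13 (-0.60, adjusted p = 0.458). The medians were -0.06 for the regulators, -0.10 for the other transport genes, -0.13 for the contact genes and -0.14 for the metabolic genes, against 0.0069 over all genes. For Hq-WT against Aifm1-WT the smallest p of each list was that of Afg3l2 (0.22, adjusted p = 0.345), Letm2 (-0.42, adjusted p = 0.196), the contact protein Pacs2 (-0.39, adjusted p = 0.299) and Pdha1, a subunit of pyruvate dehydrogenase (0.12, adjusted p = 0.555). Pacs2 was called without Hq-WT 3 (-0.58, adjusted p = 0.0315), and in no other alternative.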

How the data were processed

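RNA was extracted with TRIzol and sequenced from KAPA mRNA-seq libraries as single-end reads of 51 bases, per the labels' protocols. The deposited table holds raw read counts per Ensembl gene. Per the series' design text, reads were trimmed of adapters and low-quality sequence, mapped to mm10 with STAR and counted with htseq-count. The submitters' processing notes give STAR 2.6 and name SAMtools and HTSeq. No source used here gives the HTSeq version, annotation or strand setting. Counting per gene can lower genes that share sequence with another.

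Symbols, positions and lengths came from GENCODE M21 on GRCm38 (55394 of 55573 IDs had a symbol, and 0 rows had no gene ID). CPM used TMM factors over all 16 libraries. Comparisons were tested with edgeR 4.0.16 (R 4.3.3) by the quasi-likelihood F-test, after its default filter on low counts and with TMM factors, with p-values adjusted over all genes tested (Benjamini-Hochberg) and calls made under 0.05. The knock-in line was fitted without a block. The Hq libraries had the replicate number as a block, since same-numbered libraries deviated together (r = 0.431, 0.534, 0.409 and 0.453, each library correlating best with its own number). The labels give these numbers without saying what they mark. The difference of effects used all 16 libraries with that block. SE is the log2 fold change over the square root of F. Ratios to Mcu were tested by exact permutation or sign flips, adjusted over 8 tests. Alternatives were DESeq2 1.42.0, its size factors, limma-voom (limma 3.58.1), no filter, the block added or removed, a striatum covariate, transcript length, and leaving out libraries. The tests were tried on simulated data.

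The members, the gene lists and the Hq block were chosen with earlier results of these data known. Named genes were the members, Aifm1, the gene with the smallest p of each list, and the 3 genes closest to each member by r, leaving out unnamed gene models. Some genes that this rule names are not reported here. The genes higher in 4 of 4 pairs, Chchd4 among them, and the overlapping genes Pheta2, Fgf20 and Mir7666 were named after their values were seen. Of 15 marker lists, all summed per library and counted in each comparison, the text gives those beside which a result is read.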

Additional observations from a re-analysis of the deposited data

Results flagged for a closer look

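Single libraries that lay far from the other 3 of their group were looked for in the CPM of 5 members and in each ratio to Mcu, in each of 4 groups. Chance marks about 1 group in 20, so more than 1 mark would come by chance over so many groups. Smdt1 was marked in both Hq groups: it was 110.8 CPM in Hq-mut 2, where the other 3 libraries had 47.6 to 52.1 CPM, and 76.4 CPM in Hq-WT 2, where the others had 53.7 to 57.4 CPM. The gap to the nearest library, as a share of the range, was 0.84 in Hq-WT 2, just past the limit of 0.829. The log2 ratio of Smdt1 to Mcu was 3.81 in Hq-mut 2, against 2.82 to 2.90 in the others of that group. That mark rests on the same Smdt1 value as the one in CPM. The log2 ratio of Micu3 to Mcu was 2.56 in Aifm1-KI 1, against 2.12 to 2.19 in the other Aifm1-KI libraries. Aifm1-KI 1 had the lowest Mcu level of all 16 libraries (25.7 CPM) and the highest Micu3 level of its group (134.3 CPM).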

How the results depend on the processing

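No member was called under any of the alternatives run. Of 303 recomputed values over 28 member results, 274 kept direction and side of the threshold and 29 changed sign, all of the latter at 0.15 log2 units or less, among them Smdt1, Mcub, Micu2 and Micu3 in the knock-in line and Smdt1 and Micu2 in the Hq line, so no direction is given for these. Counts of all genes called moved more: in the knock-in line from 0 to 82 with DESeq2 and 1 with the striatum covariate, and 0 to 46 with 1 library left out (46 without Aifm1-KI 3). In the Hq line 3 became 368 without the filter, 33 with DESeq2, and 1 to 4 with 1 pair left out. For Hq-WT against Aifm1-WT 101 became 560 without the filter, 20 without Aifm1-WT 1 and 2 together (an alternative chosen after seeing the data), and 32 to 231 with 1 library left out. Adding the replicate block in the knock-in line left 0 genes called, where same-numbered libraries did not deviate together (r from -0.03 to 0.10), and without the replicate block in the Hq line 3 genes were called, the same 3 genes.

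In the knock-in line, Micu2 was -0.039 with the striatum covariate and -0.0057 without Aifm1-KI 2 and 4 together, and Micu3 was 0.0090 without those and 0.015 without Aifm1-WT 1 and 2 together. With 1 library left out, Mcub ran from -0.097 to 0.074, Micu3 from -0.049 to 0.0093, Smdt1 from -0.063 to 0.017 and the Micu2 to Mcu ratio from -0.069 to 0.027. In the Hq line, Smdt1 was 0.00060 with DESeq2 size factors, 0.0022 without the filter, 0.0080 with limma-voom and 0.071 without the replicate block. With 1 pair left out, Smdt1 ran from -0.18 to 0.069 and Micu2 from -0.043 to 0.012, and the Micu3 to Mcu ratio was -0.10 without pair 4. The difference of effects, left out by library after seeing the data, ran from -0.00098 to 0.096 for Mcu and from -0.054 to 0.031 for Smdt1 in the knock-in line. Without pair 1 and pair 4 it was -0.0094 and -0.043 for Mcu, and without pair 2 it was 0.15 for Smdt1. With transcript length, 2 of 4 groups had another order of levels, with Mcu above Micu2. The cause of these changes was not tested. Depth limits Mcub most, at 8 to 40 counts per library.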
